A study of Mus musculus with 18 samples.

Results

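The hippocampus of control mice is described here from 7 control libraries of a polyadenylated RNA sequencing series that holds 14 libraries in its count tables. The members were chosen by their labels alone: every library that the submitters named as a nontransgenic control, with CPM (the count of a gene scaled to a fixed total per library) taken within the table that holds it. The labels list 9 control samples, so the third library of 2 of the 3 control groups is not analysed here. All animals were of the C57BL/6 strain, and their age is not given in the sources used here.

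Each control group belongs to 1 genetic model. The deletion controls (2 libraries) are the nontransgenic counterparts of CaMKII-Cre::miR-132/212f/f mice, in which a recombinase driven by the CaMKII promoter removes the paired microRNA genes. The tTA::miR132 controls (2 libraries) and the tTA::miR212 controls (3 libraries) are the counterparts of mice in which a tetracycline transactivator drives 1 of these microRNAs. Going by the word nontransgenic, the mice of every control group would carry none of these drivers or microRNA transgenes. The column names of the tTA::miR132 controls state only that the transactivator is absent. Per the series design text, the cDNA of 6 mice per group went into 3 pooled replicates, so a library stands for a pool and not for 1 mouse. Whether the deletion controls carry the loxP-flanked allele is not stated in these sources. The labels tie no library number to a pool of animals, and the numbers below come from the column names.

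The hippocampus combines layers of glutamatergic pyramidal and granule neurons with sparser GABAergic interneurons, and with astrocytes, oligodendrocytes, microglia and vessels. Its excitatory synapses are known for calcium signalling that runs from NMDA receptors to the kinase CaMKII, and for the AMPA receptors that this signalling adjusts. Choroid plexus, an epithelium that floats in the adjoining ventricle and makes cerebrospinal fluid, is often dissected along with it.

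The deletion controls held 9432812 and 8190899 counts over 10541 RefSeq genes, and the tTA::miR132 controls 9899963 and 8301385 counts over 10799 RefSeq genes. The tTA::miR212 controls were counted against Ensembl transcripts and held 1359515, 1299369 and 1320160 counts over 4618 gene symbols, with the transcript of highest mean count kept for each symbol. Values from the RefSeq and the Ensembl tables that are given side by side below describe each table, and no level was tested between them. Genes at 0 counts numbered 90 and 73 in the deletion controls, 155 and 485 in the tTA::miR132 controls, and 0 in each tTA::miR212 control.

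Elongation factor 1 alpha carries aminoacyl-tRNA to the ribosome, and its genes Eef1a1 and Eef1a2 exchanged the lead between the tables, as described with the paralog families. In the deletion controls' table Eef1a1 lies on chromosome 9 (mm9 positions 78326260 to 78329531, minus strand) and Eef1a2 on chromosome 2 (positions 180882396 to 180891720, minus strand). The first 90 bases of their reading frames are shown because they make clear how reads of genes with closely related products can still be told apart. They come from the GENCODE vM1 transcripts on NCBIM37, the assembly that mm9 names, and capitals mark the 15 bases that differ between the genes.
Eef1a1: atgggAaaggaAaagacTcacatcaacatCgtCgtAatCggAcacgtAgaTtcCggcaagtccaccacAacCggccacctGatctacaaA
Eef1a2: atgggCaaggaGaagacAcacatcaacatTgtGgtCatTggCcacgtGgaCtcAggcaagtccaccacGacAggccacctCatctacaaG
Compared base by base from the start codon, the reading frames had 79.8% of 1389 bases in common, and 426 of 462 codons encoded the same residue. No stretch of 36 bases in any annotated transcript of 1 of the genes occurred in the other.

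Among the genes with the most reads, secretion, synapse, myelin and glial genes stood together in the RefSeq control groups. Cpe, a carboxypeptidase that matures neuropeptides, had 5660 and 4906 CPM in the deletion controls and 5163 and 5012 CPM in the tTA::miR132 controls. Cpe was highest in 1 deletion control, and the ranges of the groups overlapped. Snap25, a SNARE protein of the presynaptic fusion machinery, had 3917 and 4336 CPM against 4845 and 4231 CPM. Ttr, the thyroxine carrier of choroid plexus, had 4351 and 4779 CPM against 5094 and 3720 CPM. The long noncoding RNA Snhg11, known from neurons, reached 3586 and 2719 CPM against 3226 and 3293 CPM. Mbp, a structural protein of myelin, had 3868 and 3985 CPM in the deletion controls and 2922 and 2970 CPM in the tTA::miR132 controls. Its groups did not overlap, but the tables list Mbp under different RefSeq accessions, so the gene did not enter the test between them.

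Reads of the tTA::miR212 controls were led by long transcripts of neurons. The noncoding RNA Meg3 had 5492, 5255 and 4734 CPM. Kif5a, a kinesin that carries cargo along axons, had 4982, 4942 and 4878 CPM, and the kinase gene Camk2a had 4411, 4493 and 4568 CPM. These 3 genes varied little between libraries, with a mean and SD of 5160 ± 387, 4934 ± 52.4 and 4491 ± 78.6 CPM (n = 3). The other genes among the 20 with most reads included the microtubule protein Mtap1a (3208 ± 57.4 CPM), the dendritic protein Ddn (2620 ± 53.0 CPM), the glial glutamate transporter Slc1a2 (4219 ± 109 CPM) and the vesicular glutamate transporter Slc17a7 (2142 ± 75.1 CPM).

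**Figure D1:**
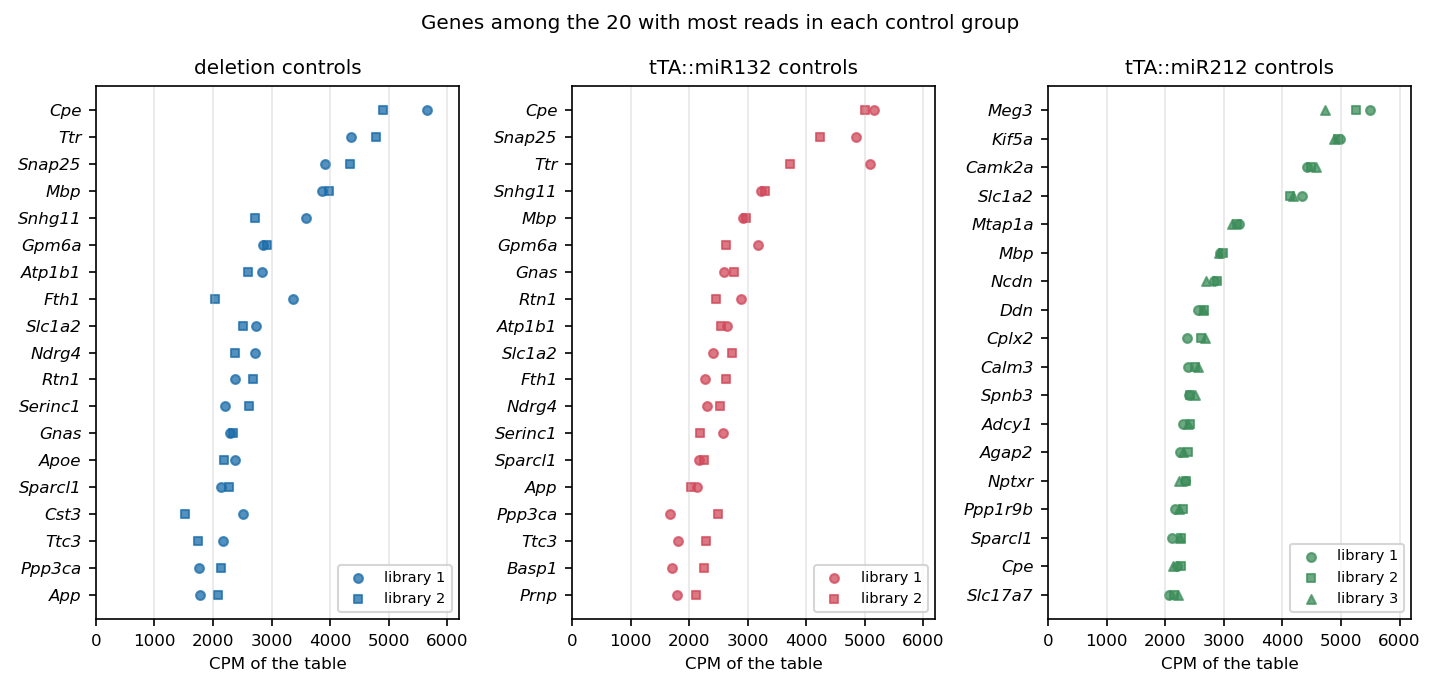
CPM of genes among the 20 with the most reads in each control group, by library (x axis, CPM within the table; one marker shape per library). Cpe has 4906 to 5660 CPM in the 4 RefSeq libraries, and Meg3, Kif5a and Camk2a lead in the tTA::miR212 controls.

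Reads were spread over many genes in each group. The top 20 genes held 5.97% ± 0.211 of counts in the deletion controls (SD, n = 2), 5.86% ± 0.0156 in the tTA::miR132 controls (n = 2) and 5.92% ± 0.0593 in the tTA::miR212 controls (n = 3). The last value rests on keeping 1 Ensembl transcript per symbol and was 9.55% when all transcripts of a symbol were summed. Of these 20 genes, 18 were the same in both RefSeq groups, and 94 of the top 100 were. The tTA::miR212 controls shared 5 of 20 with each RefSeq group. Of the top 100 they shared 54 with the deletion controls and 55 with the tTA::miR132 controls, although 94 of their own top 100 were listed in each RefSeq table. Among the genes shared by the top 20 of the deletion and of the tTA::miR212 controls were Cpe, Mbp, Slc1a2 and Sparcl1, which encodes a matrix protein of astrocytes.

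Per kilobase of exon, short messages came first. In the deletion controls Ttr had 3569 and 3920 CPM per kilobase and Fth1, the heavy chain of the iron store ferritin, had 3883 and 2342. In the tTA::miR132 controls Ttr had 4179 and 3052 CPM per kilobase and Fth1 had 2620 and 3028. Both genes overlapped between the groups, and Cpe followed with a mean of 2531 and 2438 CPM per kilobase. Cst3, a secreted protease inhibitor, had 2338 ± 818 and 1857 ± 290 CPM per kilobase (n = 2 each), and the lipid carrier Apoe had 1643 ± 99.8 and 1401 ± 272. Nrgn, a protein of dendritic spines, had 1130 ± 54.6 and 1193 ± 63.2. A 57-base feature named mmu-mir-689-2 stood first in the tTA::miR212 controls at 2403 ± 82.8 CPM per kilobase, and this value describes a feature shorter than most messages by far. Apoe followed at 1398 ± 96.7, Mbp at 1347 ± 16.9 and Fth1 at 1325 ± 70.6 CPM per kilobase (n = 3). Meg3, first by reads, was 108th of 4571 genes per kilobase.

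The labelled tissue was checked against marker lists. The excitatory list (Slc17a7, Camk2a, Nrgn, Neurod2, Neurod6, Tbr1 and Chn1) had all 7 genes in each table and summed to 5238 and 6116 CPM in the deletion controls, 5711 and 6099 CPM in the tTA::miR132 controls, and 9078, 9272 and 9430 CPM in the tTA::miR212 controls. Markers of dentate granule cells had 7 of 7 genes listed in the RefSeq tables and 3 of 7 in the Ensembl table, and markers of CA1 pyramidal cells 5 of 5 in all. The transcription factor Prox1, which defines granule cells, had 18.0 and 29.7 CPM in the deletion controls, 26.3 and 22.3 CPM in the tTA::miR132 controls, and 72.1, 89.3 and 68.9 CPM in the tTA::miR212 controls. Wfs1, which marks CA1, had 103 and 142, then 121 and 179 CPM in the RefSeq groups, and 298, 298 and 285 CPM in the tTA::miR212 controls. Prox1 and Wfs1 were thus measured in every library, but some listed markers were near the floor. Trpc6, of the granule list, had 80 and 7 counts in the tTA::miR132 controls. The list of CA2 and CA3 markers had 8, 7 and 5 of 8 genes listed for the 3 groups in the same order. Its member Iyd had 73 and 0 counts in the deletion controls and 1 and 0 counts in the tTA::miR132 controls.

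Other cell types of the tissue were measured as well. The astrocyte list (9 of 9 genes) summed to 6893 and 6905 CPM in the deletion controls and 6776 and 7538 CPM in the tTA::miR132 controls. The interneuron list (10 of 10) summed to 2725 and 2108 CPM against 2287 and 2157 CPM. Its transmitter enzyme Gad1 had 845 and 691 CPM against 644 and 711 CPM, and the peptide gene Sst had 607 and 471 CPM against 513 and 405 CPM. The microglia list (11 of 11) summed to 716 and 779 CPM against 812 and 725 CPM. For these 3 lists the ranges of the RefSeq groups overlapped. Blood genes were near the floor: 2 of 7 were listed in each RefSeq table and they summed to 28.1 ± 4.74 CPM and 31.8 ± 5.90 CPM (SD, n = 2 each). In bulk RNA, fewer cells of a type and less RNA per cell cannot be told apart.

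Choroid plexus RNA was present in the control libraries of each group, and its list sum varied most in the tTA::miR212 controls. The list summed to 5514 and 6424 CPM in the deletion controls and 6533 and 5025 CPM in the tTA::miR132 controls, with 11 of 11 genes listed. Most of that sum was Ttr, and the next gene was Enpp2, the lysophospholipase autotaxin, at 997 and 1350 CPM against 1203 and 1086 CPM. The more restricted members were low: Folr1 had 17.7 and 17.8 CPM against 24.4 and 12.8 CPM, and Kl, the gene of klotho, had 32.5 and 81.4 CPM against 76.4 and 107.7 CPM. Some low members differed strongly within a RefSeq group, in either direction. Aqp1 had 1.27 and 11.8 CPM against 16.8 and 0.723 CPM. Otx2 had 12.9 and 13.4 CPM against 22.2 and 1.93 CPM, and Col8a1 had 21.8 and 37.1 CPM against 12.9 and 59.9 CPM. The tTA::miR212 table lists only Ttr, Enpp2 and Kl, and they summed to 1412, 1227 and 534 CPM. All 3 genes were lowest in library 3 of the tTA::miR212 controls. Ttr had 782, 710 and 262 CPM there, Enpp2 had 572, 463 and 252 CPM, and Kl had 58.1, 53.9 and 19.7 CPM.

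Markers of a neighbouring region also moved between libraries of 1 group. The thalamus list (Tcf7l2, Lhx9, Slc17a6, Prkcd and Rora) summed to 224 and 112 CPM in the deletion controls and to 111 and 241 CPM in the tTA::miR132 controls. Slc17a6, the vesicular glutamate transporter of thalamic neurons, was the largest part of the list, with 103 and 47.5 CPM against 53.5 and 124 CPM. Prkcd, a kinase gene strong in thalamus, had 54.8 and 29.3 CPM against 15.2 and 52.3 CPM. Library 1 of the deletion controls and library 2 of the tTA::miR132 controls were the higher ones for the list and for both genes, so the groups overlapped. Lhx9 and Rora had the same order. Tcf7l2 did not, as it was higher in library 1 of each group, with 30.2 and 16.6 CPM against 21.7 and 16.0 CPM. In the tTA::miR212 controls the 3 listed genes summed to 171, 138 and 167 CPM.

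Activity-regulated genes differed most within the tTA::miR132 controls. The immediate early list summed to 1066 and 863 CPM in the deletion controls, 580 and 1099 CPM in the tTA::miR132 controls, and 1805, 1976 and 1792 CPM in the tTA::miR212 controls, with 12, 13 and 11 of 14 genes listed. Arc, a regulator of AMPA receptor removal, had 76.0 CPM in library 1 of the tTA::miR132 controls and 310 CPM in library 2, against 244 and 156 CPM in the deletion controls. Dusp1, a phosphatase of MAP kinases, had 26.0 and 121 CPM against 86.6 and 33.3 CPM. Egr1, a transcription factor, was steadier at 183 and 229 CPM against 278 and 217 CPM. Each of these 3 genes was higher in library 2 than in library 1 of the tTA::miR132 controls, and each overlapped the deletion controls. Fos was low in both, with 26.2 and 32.8 CPM in the tTA::miR132 controls and 93.1 and 76.9 CPM in the deletion controls.

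**Figure D2:**
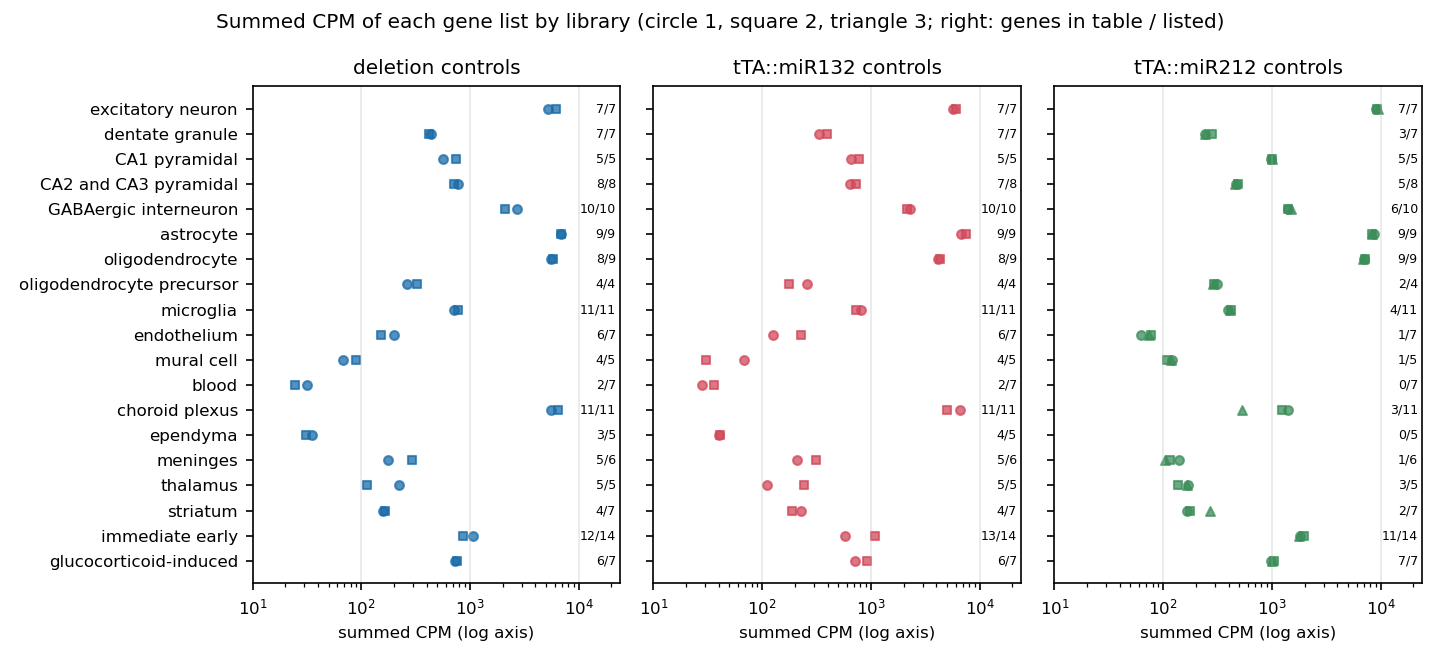
Summed CPM of each gene list (x axis, log scale) by control library, with the number of listed genes that the table holds at the right of each row. The choroid plexus sum of tTA::miR212 control library 3 (534 CPM) stands below libraries 1 and 2 (1412 and 1227 CPM), and the immediate early sum of tTA::miR132 control library 1 (580 CPM) stands below library 2 (1099 CPM).

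Paralog families give ratios that do not depend on library size, because the members are divided by their own sum in the same library. Of 36 families with at least a pair of members in the RefSeq tables, 32 were led in reads by the same member in all 4 RefSeq control libraries. The exceptions were the 14-3-3 adaptors (Ywhab or Ywhae), the complexins (Cplx1 or Cplx2), the beta-tubulins (Tubb4 or Tubb5) and the alpha-tubulins (Tuba1a or Tuba4a). Per kilobase, 30 of 34 families with lengths had 1 leader in all 4 libraries. In the 3 tTA::miR212 controls, 32 of 34 families had 1 leader by reads and 33 of 34 per kilobase. Shares per kilobase leave out members with no matched transcript length, such as Mef2d in the RefSeq tables. Every share is taken over the members that a table lists, and their number differed between the tables for some families. The RefSeq tables list more members for synaptobrevin (3 against 2), Rab3 (4 against 3), complexin (3 against 2), enolase (3 against 2) and 14-3-3 (6 against 5). They list fewer for the AMPA receptors, the Dlg scaffolds and the calcium pumps (3 against 4 each).

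The calcium-activated kinase CaMKII, which adjusts synaptic strength, was led by Camk2a in all 7 libraries, with 51.3% and 50.7%, then 53.8% and 55.9%, then 68.2%, 67.6% and 68.1% of CaMKII reads. Its partner subunit Camk2b held 32.0% ± 0.981, 30.8% ± 0.260 and 25.5% ± 0.750 (SD over 2, 2 and 3 libraries).

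Of the glutamate receptors, the AMPA family had another leader in the Ensembl table and the NMDA family did not. Gria2, the AMPA receptor subunit that keeps calcium out, held 64.8% and 67.9% of AMPA receptor reads in the deletion controls and 65.1% and 63.8% in the tTA::miR132 controls. In the tTA::miR212 controls Gria2 held 37.5%, 34.7% and 38.3%, and Gria1 led with 48.0%, 50.2% and 43.9%. Gria3 is listed in the Ensembl table alone, where it held 11.5% ± 1.37. The log2 ratio of Gria1 to Gria2 was -1.10 ± 0.13, -1.01 ± 0.03 and 0.36 ± 0.17 in the 3 groups in the same order (SD, n = 2, 2 and 3). Of the NMDA receptor, the obligatory subunit Grin1 led everywhere, with 66.7% ± 8.66, 68.8% ± 7.17 and 53.9% ± 0.916. Slc17a7, which loads glutamate into vesicles in hippocampal neurons, held 70.1% and 88.7% of its family's reads in the deletion controls, 85.8% and 66.4% in the tTA::miR132 controls, and 98.1%, 98.7% and 98.4% in the tTA::miR212 controls. The low RefSeq values were in the same 2 libraries that had the higher thalamus sums, and Slc17a6, the other main member, is on that list. The part of other brain regions in these shares was not tested.

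Synaptic fusion and scaffold families were led by the members known from forebrain. Snap25 held 99.5% and 99.5% of reads beside Snap23 in the deletion controls and 99.5% and 99.1% in the tTA::miR132 controls. Vamp2, the vesicle SNARE of most forebrain synapses, held 75.7% and 81.4%, then 84.5% and 75.5%, then 88.6%, 88.5% and 87.5% of synaptobrevin reads. Vamp3 is listed in the RefSeq tables alone, so the RefSeq and Ensembl shares of Vamp2 rest on unlike members. Snap25 and Vamp2 led in every library that lists a pair of members. Dlg4, the postsynaptic scaffold PSD-95, held 51.1% and 46.1%, then 61.2% and 46.7%, then 57.1%, 57.4% and 57.8% of its family. Its RefSeq shares rested on low levels, with 128 and 186 CPM in the deletion controls and 350 and 212 CPM in the tTA::miR132 controls. Of the Rab3 proteins, which prime vesicles, Rab3c held 54.2% and 48.7%, then 48.8% and 47.4% in the RefSeq groups. Rab3a was ahead in the tTA::miR212 controls with 69.5%, 71.7% and 71.4%. Per kilobase Rab3a led in all 3 groups, with 74.6% ± 0.776, 79.0% ± 1.01 and 81.4% ± 1.03. The complexins, which clamp fusion, had Cplx2 at 57.8% and 61.6%, then 58.8% and 49.1%, then 72.8%, 71.1% and 70.1%, so by reads Cplx1 was ahead only in library 2 of the tTA::miR132 controls. Per kilobase Cplx1 led in all 4 RefSeq libraries, with 58.7% ± 2.71 and 64.5% ± 6.62, and Cplx2 led in the tTA::miR212 controls with 52.5% ± 1.65.

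Cell surface and cytosolic adaptor families had leaders that were steady, differed by table or, for the 14-3-3 adaptors, also differed between RefSeq libraries. App, the amyloid precursor, held 54.3% and 58.5%, then 55.4% and 61.1%, then 48.0%, 47.2% and 47.8% of its family's reads and led in all 7 libraries. Per kilobase its paralog Aplp1 was ahead in the tTA::miR212 controls, at 46.2% ± 0.642. Atp2b1, a plasma membrane calcium pump, held 75.2% and 71.6%, then 70.6% and 77.3% in the RefSeq groups and 32.4%, 34.2% and 29.5% in the tTA::miR212 controls, where Atp2b2 held 39.5% ± 3.97. Atp2b3 is listed in the Ensembl table alone and adds to the family's reads there. The 14-3-3 adaptors were near even in the RefSeq groups, where Ywhab held 23.1% ± 2.25 and 23.0% ± 2.11 and Ywhae 23.7% ± 0.177 and 23.5% ± 2.08. Ywhag held 44.9%, 44.6% and 43.8% in the tTA::miR212 controls, against 18.5% to 23.9% in the 4 RefSeq libraries.

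Inhibitory and housekeeping families showed both steady and table-dependent shares. Gad1 held 73.2% ± 2.50, 68.0% ± 2.46 and 62.1% ± 0.582 of glutamate decarboxylase reads (SD, n = 2, 2 and 3), and it led in all 7 libraries. Eno2, the neuronal enolase, held 80.9% and 77.1%, 82.8% and 82.7%, and 93.6%, 92.3% and 94.6%. Slc1a2 held 67.4% ± 4.71, 68.7% ± 0.884 and 82.6% ± 0.413 of glutamate transporter reads. Per kilobase its shorter partner Slc1a3 was ahead in all 4 RefSeq libraries, at 273 ± 44.1 against 226 ± 12.9 CPM per kilobase in the deletion controls and 251 ± 5.15 against 221 ± 19.1 in the tTA::miR132 controls. Elongation factor 1 alpha changed its leader: the general form Eef1a1 held 64.4% and 55.2%, then 52.3% and 57.9% in the RefSeq groups, and 17.0%, 16.3% and 15.3% in the tTA::miR212 controls, where the neuronal and muscle form Eef1a2 led.

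Nuclear factors of neurons had other leaders in the Ensembl table as well. Mef2c, a transcription factor that shapes synapse number, held 86.8% and 88.4%, then 89.4% and 89.7% of MEF2 reads in the RefSeq groups. In the tTA::miR212 controls it held 19.3%, 18.3% and 23.3%, and Mef2d held 53.0%, 56.8% and 53.1%. The glucocorticoid receptor Nr3c1 held 93.4% and 86.4%, then 92.2% and 78.8%, against 42.8%, 36.1% and 46.0%, where its paralog Nr3c2, the mineralocorticoid receptor, was the larger part. Within a table none of these leaders changed between libraries.

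**Figure D3:**
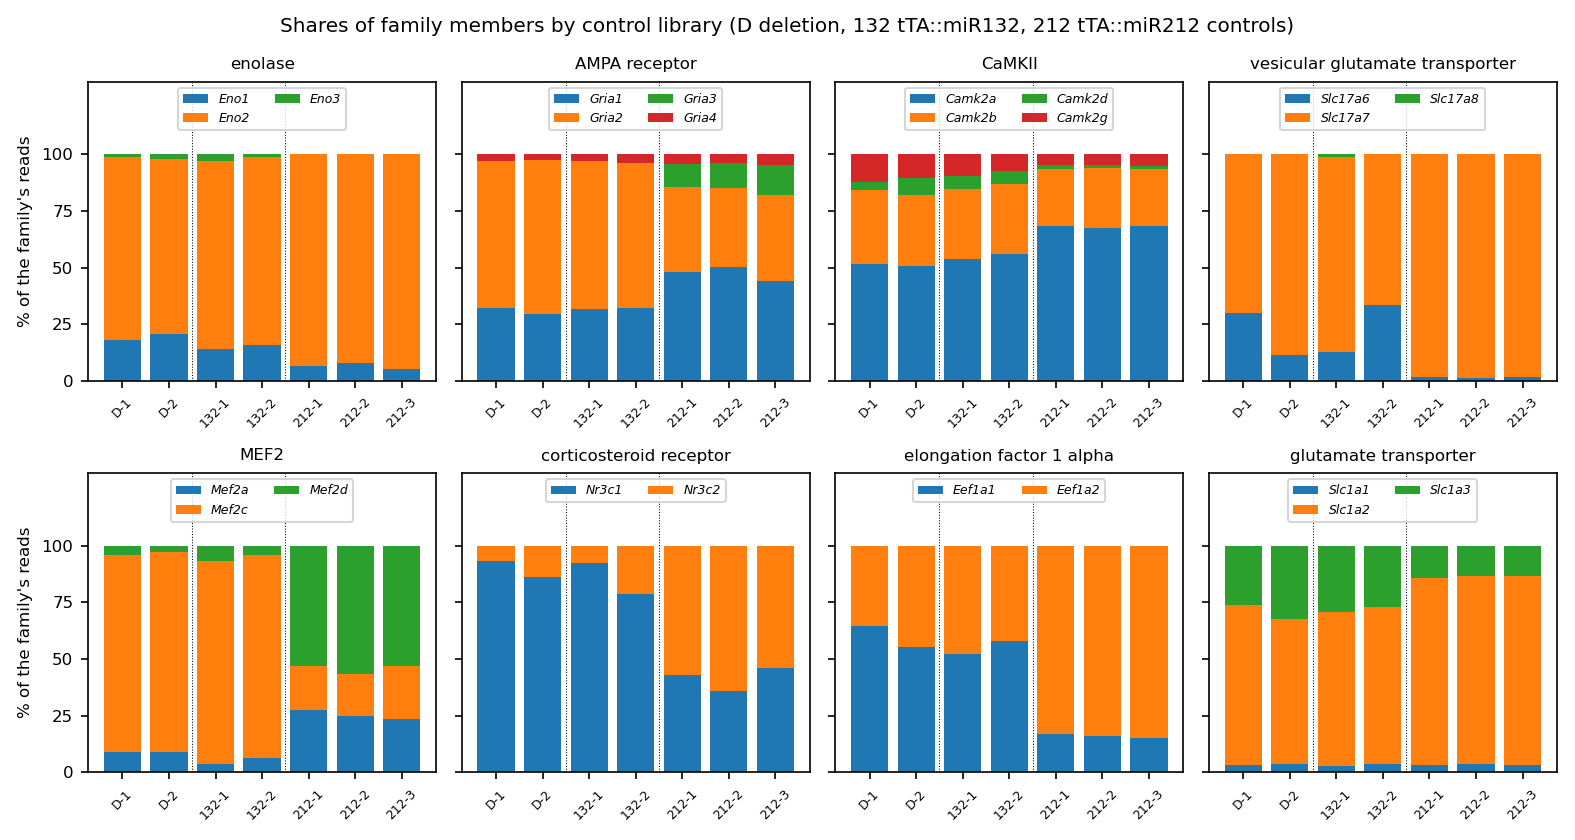
Share of each member in its family's reads (y axis, percent) for 8 families in the 7 control libraries, with dotted lines between the groups; a member absent from a table has no bar. Eno2 holds 77.1% to 82.8% in the 4 RefSeq libraries and 92.3% to 94.6% in the 3 tTA::miR212 libraries, and Mef2c holds 86.8% to 89.7% and then 18.3% to 23.3%.

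Over the 33 families measured in all 3 tables, 21 had the same leader by reads in the 3 groups and 12 did not. Per kilobase, 18 of 32 did and 14 did not. Of the 12 families by reads, 11 had a transcript sequence for the leaders of both the deletion and the tTA::miR212 controls. In 10 of these the leader in the tTA::miR212 controls had the higher GC content, though the HSP70 leaders were near equal (46.6% against 46.5%). Per kilobase both directions occurred. The tTA::miR212 leader had the lower GC content for the reticulons (47.0% against 55.1%), complexins (53.7% against 56.0%) and glutamate transporters (45.3% against 46.7%). It had the higher one for the 14-3-3 adaptors (52.5% against 43.9%) and the App family (60.4% against 51.2%), among others. Gria1 has a GC content of 48.6% against 38.1% for Gria2. Over all genes with a transcript, the change in rank of mean CPM from the deletion to the tTA::miR212 controls had a Spearman correlation of 0.435 with GC content and of 0.331 with exon length (4005 genes). Between the RefSeq groups the correlation with GC content was 0.00772 (8275 genes). These correlations run across genes of the same libraries, which are not independent replicates. Table, annotation, library preparation and animals all change with the group here and cannot be told apart.

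Reads that fit several members of a family could blur such shares. Of 126 members with a transcript sequence, 102 had no stretch of 36 bases in common with another member of the family. Only 7 had more than 5% of their stretches in common: Tubb2a, Tubb2b, Tuba1a, Tuba1b, Tuba1c, Hspa1a and Hspa1b. How reads with several matches were counted is not given in the sources used here, so the shares of these tubulins and heat shock genes are uncertain. In cytoplasmic actin, 3.76% of Actb stretches also occur in Actg1. Actg1 had 8.06 and 7.57 CPM in the deletion controls and 3.03 and 0.241 CPM in the tTA::miR132 controls, against 1570 and 1422, then 1369 and 1287 CPM for Actb.

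Spread between libraries differed between the control groups. Among genes with a mean of at least 100 CPM, the median SD of log2(CPM + 0.5) was 0.148 in the deletion controls (2591 genes), 0.226 in the tTA::miR132 controls (2609 genes) and 0.0900 in the tTA::miR212 controls (2920 genes). The share of these genes whose highest and lowest library were more than 2-fold apart was 0.540%, 5.63% and 0.0685%. The biological coefficient of variation, which edgeR estimates as the spread beyond counting error, was 27.1%, 55.6% and 5.43%. Unlike the measures above, it was taken over wider sets that include genes of lower level (9498, 9305 and 4618 genes). The RefSeq and Ensembl sets are unlike, and their part in the size of the gap between these coefficients was not tested. Each of these measures put the tTA::miR132 controls highest and the tTA::miR212 controls lowest. The modified libraries of the same tables had a coefficient of 81.2% for the deletion, 33.6% for tTA::miR132 and 10.9% for tTA::miR212, so a control group was not always the tighter one.

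Counting error left different amounts of spread unexplained. For genes with 200 to 500 counts, counting error alone gives a coefficient of variation of 5.71%, 5.71% and 5.91% in the 3 groups, and the measured values were 28.1%, 52.0% and 7.74%. The variance was 24.3 and 83.5 times the counting variance in the deletion and the tTA::miR132 controls and 1.75 times in the tTA::miR212 controls. The excess of the tTA::miR212 controls was larger for genes with more reads, at 3.18, 4.70 and 6.05 times the counting variance for 500 to 1000, 1000 to 2000 and 2000 to 5000 counts, the last of these over 43 genes. Genes at 0 in 1 library and at 200 counts or more in the other numbered 0 of 8095 in the deletion controls and 65 of 8370 in the tTA::miR132 controls, where 46 of the zeros were in library 2. For genes with 50 to 100 counts the coefficient of variation was 59.9% in the deletion controls (863 genes), 97.6% in the tTA::miR132 controls (1071 genes) and 13.2% in the tTA::miR212 controls (766 genes).

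**Figure D4:**
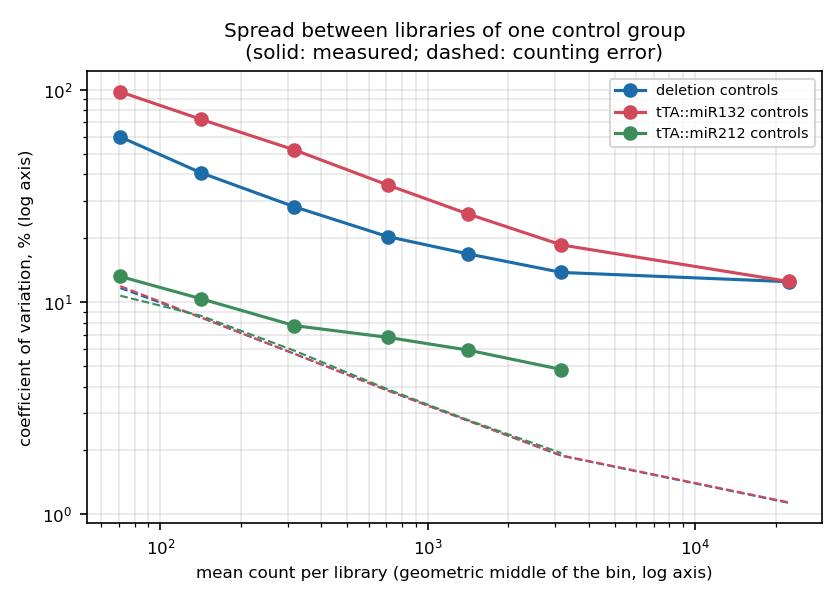
Coefficient of variation between libraries of a control group (y axis, percent, log scale) by bin of mean count (x axis, log scale); dashed lines give counting error alone. At 200 to 500 counts the tTA::miR212 controls are at 7.74% beside a counting error of 5.91%, and the tTA::miR132 controls are at 52.0%.

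Library 2 of the tTA::miR132 controls stood apart from the other RefSeq control libraries. Over 2614 genes with a mean of at least 100 CPM, the median absolute log2 ratio was 0.21 between the deletion controls, 0.21 between library 1 of both groups, and 0.19 between deletion library 2 and tTA::miR132 library 1. Each pair with library 2 of the tTA::miR132 controls had a larger median, at 0.34, 0.31 and 0.31. Pearson's r across genes was 0.938, 0.939 and 0.949 for the first 3 pairs and 0.849, 0.869 and 0.864 for those with that library. It was the library farthest from the median of the 4 for 45.1% of genes, against 15.4% to 22.0% for the others. The pairs of the tTA::miR212 controls had medians of 0.09, 0.11 and 0.10. Without library 2 of the tTA::miR132 controls, the pairs across the RefSeq groups had medians close to that of the pair of deletion controls. The tTA::miR212 libraries were not paired with those of another group.

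**Figure D5:**
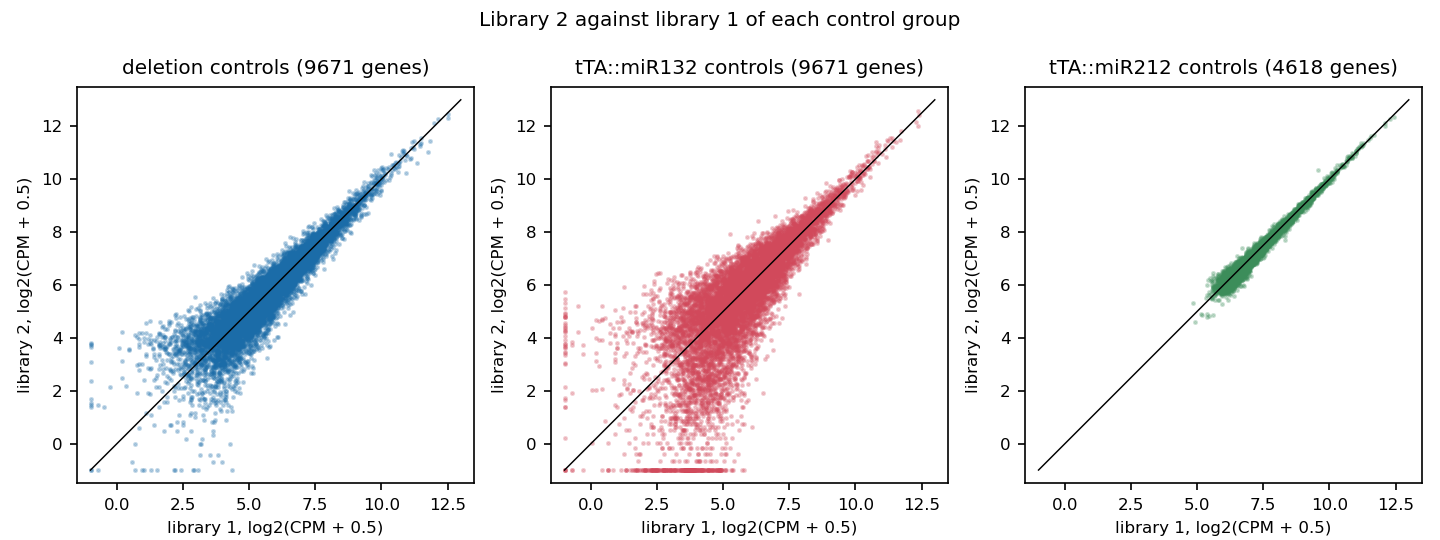
Library 2 against library 1 of each control group, as log2(CPM + 0.5) on both axes with 1 point per gene and the line of equality; the RefSeq groups show the 9671 genes they share, scaled by TMM, and the tTA::miR212 group its 4618 genes. The tTA::miR132 controls scatter most, with a row of genes at 0 in library 2, and the tTA::miR212 controls lie close to the line.

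The genes with the largest spread were of different kinds in each group. In the deletion controls Ppargc1a, a coactivator of mitochondrial genes, had 156 and 61.1 CPM (TMM-scaled, SD 0.95 on the log2 scale), and it stood first. The adaptor Grb2 had 91.2 and 219 CPM, the metallothionein Mt3 280 and 122 CPM, and the actin-binding Pfn1 80.3 and 184 CPM. Psma6, Vapb, Cfdp1 and Camk2d completed the 8, with SDs of 0.79 to 0.87. In the tTA::miR132 controls the transcription factor Pou6f1 had 35.4 and 226 CPM, Zer1 219 and 46.3 CPM, Arc 74.6 and 316 CPM, and the cation channel Trpc4 43.9 and 170 CPM. Of the 8 genes there, 7 were higher in library 2, with Zer1 the exception.

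Choroid plexus genes came first in the tTA::miR212 controls. Ttr (776, 712 and 263 TMM-scaled CPM, SD 0.87) and Enpp2 (567, 465 and 253 CPM, SD 0.61) came first and second and were low in library 3. Xist, the RNA that silences an X chromosome, had 757, 1303 and 1357 CPM, and its antisense neighbour Tsix had 102, 169 and 194 CPM. The strand setting of the counts is not given, so reads of this overlapping pair cannot be told apart. The RefSeq tables list no gene of chromosome X. Rasd2, a G protein strong in striatum, had 85.4, 86.5 and 142 CPM, beside a striatum list (Ppp1r1b and Penk) of 167, 178 and 270 CPM. Library 3 was thus the lowest for choroid plexus and the highest for Rasd2 and the striatum sum, and the part of dissection in this was not tested.

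Genes with the smallest spread were of many functions. Atp5b, a subunit of the mitochondrial ATP synthase, had 1107, 1106 and 1105 TMM-scaled CPM in the tTA::miR212 controls. Cox6a1, of cytochrome oxidase, had 226 CPM in each of them, and the axonal adaptor Fez1 had 289 CPM in each. In the deletion controls Bcan, a proteoglycan of the neural matrix, had 191 CPM in both libraries, and in the tTA::miR132 controls the phosphodiesterase Pde2a had 400 CPM in both. They were picked for their closeness, so these values are a description. A gene's spread in 1 group said little of its spread in another: over genes the Spearman correlation of the SD was 0.0393 between the RefSeq groups (2279 genes) and 0.0365 and 0.0616 between them and the tTA::miR212 controls, beside 0.906, 0.536 and 0.535 for the mean level.

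The RefSeq control groups were then tested against each other over the genes that share an accession. This asks how far the hippocampus of control mice differed between the sets. In this comparison set, table and authors' processing cannot be told apart. With edgeR's quasi-likelihood test, 0 of 9664 genes passed an adjusted p of 0.05 (0%), and 287 (2.97%) had an unadjusted p under 0.05. The groups did not overlap for 3254 genes (33.7%), of which 1597 (16.5%) were higher and 1657 (17.1%) lower in the tTA::miR132 controls. With 2 libraries against 2, values without any group difference would fail to overlap at about these rates. The shares therefore cannot tell whether a small part of the genes differed between the sets. The biological coefficient of variation of this fit was 49.5%. With such spread and 2 libraries per group, 0 calls do not show that the sets were alike. DESeq2 called 3 genes (0.031%), each lower in the tTA::miR132 controls: 2610002I17Rik, Rps2 and Cyth4. With the library number as a replicate block edgeR called 2 genes (0.0207%), among them Rps2. Each library is a pool, so the p-values measure only the spread between pools.

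That count depended on library 2 of the tTA::miR132 controls and on its partner. Without library 2 edgeR called 10 genes (0.103%), all lower in the remaining tTA::miR132 control, among them Rps2, 2610002I17Rik, Cyth4, Arc and the myelin gene Mobp. Without library 1 it called 2022 genes (20.9%), with 806 higher and 1216 lower in library 2. A lone library is assumed to vary like the deletion controls in these fits. Without library 2 of the deletion controls 1 gene was called, Rps2 (0.0103%), and without library 1 of the deletion controls 0 were, with 81 at an unadjusted p under 0.05.

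The genes DESeq2 called and Rpl6 had far fewer counts in the tTA::miR132 controls. Rps2, of the small ribosomal subunit, had 1080 and 629 counts in the deletion controls and 117 and 4 counts in the tTA::miR132 controls, a log2 difference of -3.91 (edgeR adjusted p = 0.996). Rpl6, of the large subunit, had 431 and 315 counts against 116 and 30 (log2 difference -2.41). 2610002I17Rik had 202 and 191 counts against 5 and 4, and Cyth4, an exchange factor for ARF proteins, had 63 and 175 counts against 0 and 0. In each of these genes both tTA::miR132 libraries lay far below both deletion libraries. None passed the adjusted threshold in the main edgeR fit, while DESeq2 and the replicate block made the calls given above.

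Other genes with the smallest p had differences of either sign. Fos, the activity-induced factor, had 878 and 630 counts against 259 and 272, with a log2 difference of -1.47 ± 0.44 (SE, edgeR adjusted p = 0.996). In the other direction, the actin-binding Tagln3 (0.69), the microtubule protein Clasp2 (0.92) and the RNA-binding Celf5 (0.86) were higher in the tTA::miR132 controls on the log2 scale. Wscd1 (-1.08) and the secretory granule protein Ptprn2 (-0.80) were lower. Nbeal1 (2.09), the cyclooxygenase gene Ptgs1 (2.11) and Clec11a (3.14) had larger values from fewer reads, and the counts of Clec11a were 45 and 44 against 95 and 621. None passed the adjusted threshold in the main edgeR fit, and their groups did not overlap, as for 33.7% of all genes.

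Myelin genes were the list with the most members at a low p. The whole list, Mbp included, summed to 5589 and 5774 CPM in the deletion controls and to 4128 and 4307 CPM in the tTA::miR132 controls. Most of this gap came from Mbp, which the tables count under different accessions. Of 7 oligodendrocyte genes tested, 5 lay below 0 and 2 above, with a median log2 difference of -0.44 beside 0.0004 over all genes tested. Mal, a lipid raft protein of myelin, had 651 and 582 CPM in the deletion controls and 439 and 318 CPM in the tTA::miR132 controls. Cnp, an enzyme of myelin sheaths, had 423 and 527 against 300 and 322 CPM, and Mag, an adhesion protein facing the axon, had 128 and 97.1 against 69.9 and 50.5 CPM. The groups did not overlap for these 3 genes or for the tight junction gene Cldn11 (223 and 265 against 149 and 194 CPM), so 4 of 7 were lower without overlap beside 17.1% of all genes. Mog, which coats the outer myelin surface, went the other way, with 64.3 and 74.6 against 108 and 118 CPM. Among the 7, 4 had an unadjusted p under 0.05 (Mal, Cnp, Mag and Mog), and 0 passed the adjusted threshold. Precursor markers were below 0 in 4 of 4 genes, with a median of -0.44, beside 4829 of 9664 over all genes tested. Of these 4 precursor genes, 1 was lower without overlap and 0 had an unadjusted p under 0.05.

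The other lists had members on both sides of 0. The largest medians came from short lists: striatum genes had a median log2 difference of 0.68 (3 of 4 above 0) and mural cell genes one of -0.70 (1 of 4 above 0). CA1 genes had a median of 0.35 (3 of 5) and glucocorticoid-induced genes 0.31 (3 of 5). Astrocyte genes had a median log2 difference of 0.09 (6 of 9 above 0), microglia genes 0.22 (7 of 11), excitatory genes 0.25 (6 of 7), interneuron genes -0.12 (3 of 9) and choroid plexus genes 0.00 (6 of 11). Immediate early genes had a median of -0.25 with 5 of 12 above 0. Of these lists, none had a gene past the adjusted threshold, and over the 112 tested members of the paralog families the median was 0.09 with 77 above 0.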

How the data were processed

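Polyadenylated hippocampal RNA was sequenced on an Illumina Genome Analyzer II, with Bowtie 0.12.7 and build mm9, per the series design text and the submitters' processing notes. The authors deposited raw read counts per RefSeq gene (deletion and tTA::miR132 tables) or per Ensembl transcript (tTA::miR212 table), per the file headers. The counting tool, strand setting, read length and filter on low counts are not stated in these sources. A further 14 normalized columns were not used.

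CPM were taken over a table's own total, with the row of highest mean count kept for each Ensembl symbol. Exon lengths came from GENCODE vM1, for RefSeq genes by the transcript of the same symbol whose start and end differed by at most 200 bases in sum, and 84.8%, 84.9% and 99.0% of symbols had one. RefSeq control groups were compared with edgeR 4.0.16 (quasi-likelihood, TMM, filterByExpr, Benjamini-Hochberg at 0.05), which was tested on simulated data. Alternatives were RLE factors, DESeq2 1.42.0, limma-voom 3.58.1, no filter, a replicate block, matching by symbol and leaving out each library. Library numbers were not used as pairs in the main fit. Deviations of same-numbered libraries correlated at -0.00485 over 9664 genes. With 2 libraries per group this is a single contrast in each, so it cannot exclude a pairing.

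Named genes were the 20 with the highest mean CPM per group, the 8 with the largest and the 8 with the smallest SD, the 8 with the smallest p in each direction, and members of fixed lists and families. Members and lists were chosen with earlier results of these data known. Counts come from amplified reads, so counting error understates the error of a value. Some genes that these rules name are not reported here.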

Additional observations from a re-analysis of the deposited data

How the results depend on the processing

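The count of genes that differed between the RefSeq control groups was 0 with edgeR under TMM, RLE factors, no filter and matching by symbol (chosen after seeing the data), and 0 with limma-voom. It was 3 with DESeq2 and 2 with the replicate block, and it ran from 0 to 2022 when 1 library was left out. Summing all Ensembl rows of a symbol raised the share of counts in the top 20 genes of the tTA::miR212 controls from 5.92% to 9.55%, and 11 of the 12 families with another leader kept their leader there. Leaving out 1 library moved the top 20 share of the tTA::miR132 controls between 5.87% and 5.93%. Lowering the minimum mean from 100 to 10 CPM raised the median SD of log2 values to 0.230, 0.403 and 0.103 in the deletion, tTA::miR132 and tTA::miR212 controls. Without 1 library, the median SD of the tTA::miR212 controls ran from 0.0647 to 0.0809 and their biological coefficient of variation from 3.64% to 6.74%. Leaving out 1 library, the families with 1 leader ran from 32 to 34 of the RefSeq families. In the tTA::miR212 controls the HSP70 leader by reads changed from Hspa4 to Hspa8 with summed rows. In the RefSeq groups the leaders of the Rab3 and complexin families differed between reads and reads per kilobase. The cause of the moved values was not tested. Totals were lowest in the tTA::miR212 controls, and pairs of libraries give each SD in the RefSeq groups a wide error.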
